A study of Mus musculus with 6 samples.

Results

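The nuclear genes of oxidative phosphorylation were followed by complex in presomitic mesoderm, the unsegmented tail tissue of the mouse embryo that buds off somites. Members were the probe sets whose only gene symbol on the platform was that of a complex I subunit (Nduf a, b, c, s or v with a number), a complex II subunit (Sdha to Sdhd), a complex III subunit (Uqcr or Cyc1), a complex IV subunit (Cox4 to Cox8) or a complex V subunit (Atp5). The rule used names alone and no measured value, but it was set with earlier results of these data known. This gave 103 probe sets of 81 genes, out of 16311 probe sets of 15153 genes with 1 symbol each: 35 genes of complex I, 4 of complex II, 9 of complex III, 17 of complex IV and 16 of complex V. Where a gene had several probe sets, the brightest over all arrays stood for it.

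Tissue was microdissected at embryonic day 9.5 from embryos of 17 to 19 somites, and RNA of 3 presomitic mesoderms went onto each of 6 arrays, 3 for either genotype. The controls were labelled WT and were Taf10Flox/+ or Taf10flox/flox, so that every control also carried at least 1 floxed allele. Mutant embryos were TCre/+;Taf10flox/flox. T-Cre is active in the primitive streak and the mesoderm that descends from it, and TAF10 is a subunit of both TFIID, the complex that brings RNA polymerase II to promoters, and the coactivator SAGA. The comparison asks how expression differs in this tissue when Taf10 is deleted. The labels give neither the number of control embryos of each genotype nor how much TAF10 protein remained.

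Oxidative phosphorylation passes electrons from NADH through complex I, and from succinate through complex II, to coenzyme Q, complex III, cytochrome c and complex IV, where oxygen is reduced. Complexes I, III and IV pump protons, and complex V, the ATP synthase, uses the gradient to make ATP. The catalytic cores of complexes I, III and IV hold subunits encoded in mitochondrial DNA, of which the table measured 0 under their symbols, while the genes described here are nuclear. Several complex IV subunits exist as a widespread form and a form restricted to muscle, lung or testis. Glycolysis, the other source of ATP, is known to be graded along the presomitic mesoderm and to be highest at the tail end.

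Promoter sequences were read to describe the genes outside the array. RefSeq windows (GRCm38.p6) were matched by gene identifier for 66 of the 81 genes, in 71 windows from 250 bases before to 50 bases after a start. Only the 250 bases before the start were searched for motifs and counted for GC content. The NRF1 part-motif GCATGCG, searched on both strands, was in 12.7% of the member windows against 3.02% of all 32851 windows. The ETS core CCGGAAG, which GABP and other ETS factors bind, was in 16.9% against 6.91%, and the YY1 part-motif ATGGCGG in 7.04% against 2.21%. A window that held more than 1 of the motifs was counted for each. The median GC content of the member windows was 56.0% against 52.4%, and a match is a description of letters, not a bound site. The median log2 change, mutant minus control, was -0.01 over the 9 genes with the NRF1 part-motif and -0.01 over the 57 without it, -0.06 over the 12 with the ETS core and -0.01 over the 54 without it, and -0.05 over the 4 with the YY1 part-motif and -0.01 over the 62 without it. The 250 bases before the start are shown for 4 members on which the results turn. They are Cox6b2, the largest rise, with its widespread counterpart Cox6b1, Ndufc1, the other gene that passed the test, and Atp5e. Atp5e had the most negative log2 change of all members but did not pass. All 4 lie on the minus strand and are written 5′ to 3′ along the gene, at chr7:4753095-4753344, chr7:30626115-30626364, chr3:51408956-51409205 and chr2:174464102-174464351, and capitals mark the ETS core, here read on the opposite strand.
Cox6b2: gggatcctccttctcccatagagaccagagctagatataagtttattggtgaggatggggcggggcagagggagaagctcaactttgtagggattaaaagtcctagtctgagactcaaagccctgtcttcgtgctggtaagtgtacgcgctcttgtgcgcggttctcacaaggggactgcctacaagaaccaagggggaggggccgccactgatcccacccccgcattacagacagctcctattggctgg
Cox6b1: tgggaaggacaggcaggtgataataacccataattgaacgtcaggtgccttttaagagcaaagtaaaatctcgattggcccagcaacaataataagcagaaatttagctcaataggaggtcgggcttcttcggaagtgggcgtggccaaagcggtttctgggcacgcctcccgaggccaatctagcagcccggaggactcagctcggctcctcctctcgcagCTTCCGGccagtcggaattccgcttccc
Ndufc1: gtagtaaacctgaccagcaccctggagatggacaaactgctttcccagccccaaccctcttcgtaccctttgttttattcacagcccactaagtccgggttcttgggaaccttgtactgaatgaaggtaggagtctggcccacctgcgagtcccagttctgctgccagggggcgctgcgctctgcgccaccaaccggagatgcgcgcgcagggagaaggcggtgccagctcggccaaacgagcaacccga
Atp5e: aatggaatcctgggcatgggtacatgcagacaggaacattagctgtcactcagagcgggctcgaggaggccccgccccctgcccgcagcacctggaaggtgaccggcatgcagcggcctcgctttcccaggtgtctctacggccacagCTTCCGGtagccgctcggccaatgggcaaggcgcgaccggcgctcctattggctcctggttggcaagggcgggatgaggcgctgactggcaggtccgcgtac
The ETS core of Cox6b1 ended 21 bases before the start and that of Atp5e 95 bases before it. The stretches shown for Cox6b2 and Ndufc1 held none of the 3 motifs.

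The arrays had like medians, from 307.9 to 317.5 on the linear scale, but mutant 3 lay apart. On the first principal component, which held 62.6% of the variance, it stood at 31.1 and the other arrays at -16.3 to 3.79. Over all probe sets it departed from its group mean by 0.184 log2 units (root mean square), against 0.0762 to 0.112 for the others, and over the members by 0.254, against 0.0648 to 0.143. Control 3 differed in Xist, at a log2 level of 6.32 against 11.35 to 12.57, so the pools were not matched for sex. Of the presomitic mesoderm markers, 11 of 12 were measured and their summed linear level was 20550 to 21800 in controls and 25400 to 27820 in mutants, with Hes7 and Tbx6 called higher and Cyp26a1 lower. Erythroid markers (5 of 6 measured) summed to 9293 to 22480 in controls and 3999 to 16630 in mutants, with mutant 3 the lowest. Endothelial markers summed to 671.3 to 1911 and 548.9 to 1280. Neural, gut, notochord and surface ectoderm lists had 0 called genes, and of the muscle markers (9 measured), which summed to 1815 to 1887 and 1683 to 1881, Actc1 was called lower. No marker was at 0 in any array, the lowest reading being 44.6. In pooled tissue, fewer cells of a type and less RNA per cell cannot be told apart. The 2 Taf10 probe sets, which check the labels, went apart: 10365288 fell by 0.37 on the log2 scale (SE 0.08, limma adjusted p = 0.04004) and 10566525 stood at 0.11 (limma adjusted p = 0.5302), and the part of the transcript that either reads is unknown here.

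Most members differed little between the genotypes. Of 81 genes, 2 (2.47%) rose at a limma adjusted p under 0.05 and 0 fell, against 5.92% of all genes called in either direction, 2.96% higher and 2.96% lower. At an unadjusted p under 0.05, 12 members (14.8%) passed, 7 higher and 5 lower, against 22.7% of all genes. Mutant and control values did not overlap in 18 members (22.2%), 10 higher and 8 lower, against 32.3% of all genes, 17.2% higher and 15.1% lower. The median log2 change was -0.01 over the members and 0.03 over all genes, with 38 members above 0 and 43 below. For 61 of the 81 the change was under 0.2 in size, and for 61 the 95% interval lay within plus or minus 0.5. The counts depended on which arrays entered: they were 5 higher and 2 lower without mutant 3 (6.41% higher and 6.43% lower over all genes), 1 higher without control 3, mutant 1 or mutant 2, and 0 without control 1 or control 2. The 5 were Ndufa11, Ndufa6, Ndufa8, Ndufc1 and Cox6b2, and the 2 were Ndufb2 and Atp5e. The share of all genes called was not counted with any other array left out.

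The medians of the complexes lay close to 0, with complex V the lowest. The median log2 change was 0.03 for complex I, 0.01 for complex II, -0.01 for complex III, 0.00 for complex IV and -0.09 for complex V. In complex V 13 of 16 genes lay below 0. Without mutant 3 the median of complex V was -0.03 and that of complex I 0.06. By array, the median shift of complex V was -0.03, -0.06 and -0.16 in mutants 1, 2 and 3, and that of complex III was -0.01, -0.02 and -0.21. Over all genes the shift was 0.01, 0.02 and 0.08, so mutant 3 lay on the other side of 0 there. All genes are not a like set, because a larger share of the members is bright, as counted below. With probe sets under the 40th percentile of level left out, the median log2 change over all tested was -0.02, against 0.03 with none left out.

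**Figure D1:**
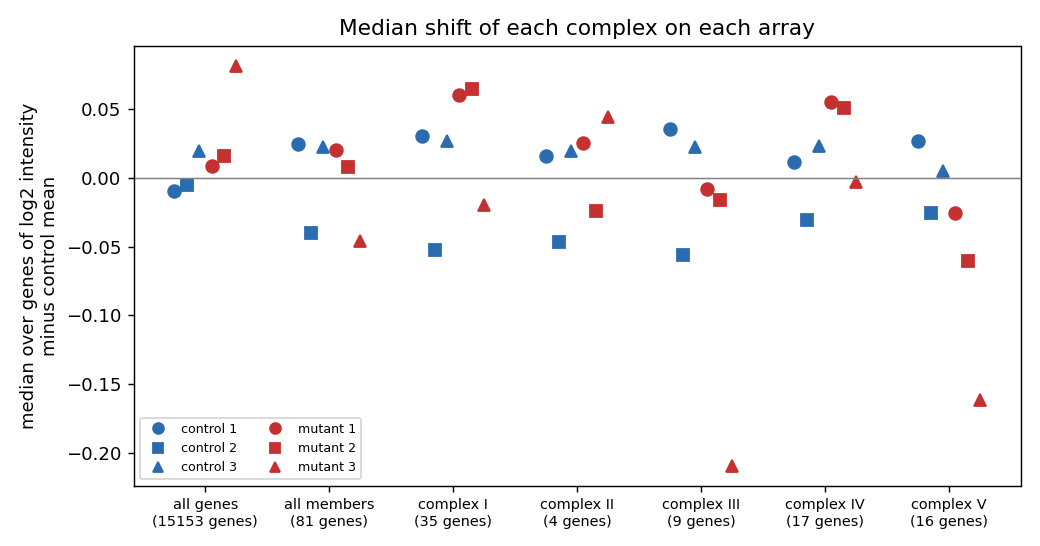
Median over genes of each array's log2 intensity minus the control mean of the gene, for all genes, all members and each complex. Each point is 1 array, controls in blue and mutants in red, and in complexes III and V the lowest point is mutant 3, at -0.21 and -0.16.

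Mutant 3 read many members at an extreme. It was the lowest of the 6 arrays in 36 members (44.4%) and the highest in 25 (30.9%), against 25.3% and 43.8% of all genes, so that it lay outside the other 5 arrays in 61 members (75.3%) and in 69.1% of genes. A mean log2 intensity of at least 10 was read for 66.7% of the members and 20% of all genes. Among genes at that intensity, the shares were 24 of 54 members (44.4%) lowest and 18 (33.3%) highest, against 46.3% and 29.5% of 3033 genes, so at that intensity the members lay near the background. It was far below the other arrays in Ndufa1, Cox7a2, Cox4i1 and Cox6a1, and above them in Ndufs7, Sdhc and Ndufa10. The low erythroid sum of mutant 3 moved with these values, and its part in them was not tested. Ndufa1, Ndufs7 and Ndufa10 were chosen for mention after their values were seen.

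Complex I, which oxidises NADH, had 1 gene that rose and 0 that fell among 35. Of its 7 core subunits encoded in the nucleus 6 were measured, and 0 of them passed, with a median log2 change of 0.05. Among 27 accessory subunits, which surround the core and are needed to build or steady it, 1 rose, beside 2.96% of all genes, and 4 higher and 2 lower had an unadjusted p under 0.05, beside 11.7% and 10.9% of all genes, which is near that background. Ndufc1, an accessory subunit of the membrane arm, read 10.77, 10.72 and 10.84 in control pools 1 to 3 and 11.21, 11.22 and 10.98 in mutant pools 1 to 3 on the log2 scale. All mutant pools lay above all controls, mutant 3 the least. This is a rise of 1.28-fold, or 0.36 in log2 terms (SE 0.08, limma adjusted p = 0.04481). Its other probe set gave 0.28 (SE 0.07, limma adjusted p = 0.05459), with the same order of groups. The call was lost when any array but mutant 3 was left out, at limma adjusted p from 0.099 to 0.192.

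Of the other 3 members of complex I with the smallest p, 2 lay higher and 1 lower, and none passed. Ndufa11, an accessory subunit of the membrane arm, read 11.53, 11.46 and 11.66 in controls and 11.79, 11.81 and 12.06 in mutants, without overlap. The difference in log2 level was 0.34 (SE 0.09, limma adjusted p = 0.0764). Without mutant 3 it was 0.26, with a limma adjusted p of 0.0499. This probe set lies away from the gene in the array's numbering. The Ndufa11 probe set at the gene's own place gave 0.30 (SE 0.09, limma adjusted p = 0.0975), also without overlap. Its change without mutant 3 was 0.23 (limma adjusted p = 0.0821), which was not called. Ndufa8, an accessory subunit facing the intermembrane space, read 10.40, 10.26 and 10.38 against 10.70, 10.64 and 10.49. The groups did not overlap, and the change was 0.27 (SE 0.08, limma adjusted p = 0.0914). Ndufb2, an accessory subunit of the membrane arm, lay lower in every mutant pool, at 8.28, 8.13 and 8.30 in controls and 7.87, 7.82 and 8.03 in mutants. Its change of -0.33 (SE 0.08) had a limma adjusted p of 0.0564, and it was called lower after quantile normalization, with a filter on level, with array weights, and without mutant 3, where the change was -0.40.

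Among the core subunits, Ndufs7, Ndufs8, Ndufv1 and Ndufv2, which carry iron-sulfur clusters or flavin on the path of the electrons, had log2 changes of 0.14, -0.01, 0.02 and 0.07, and Ndufs3, which carries none, 0.07. Ndufs8 read 11.16, 11.12 and 11.23 in controls and 10.96, 10.99 and 11.52 in mutants, so that mutants 1 and 2 lay below the controls and mutant 3 above them. Without mutant 3 its change was -0.20 (limma adjusted p = 0.0615) and that of Ndufs7 -0.01. Ndufs1, which holds several of those clusters, read 10.03, 10.06 and 10.08 in controls and 10.07, 10.02 and 9.47 in mutants. Mutants 1 and 2 lay within or close to the control range and mutant 3 well below it. Ndufa1, an accessory subunit, showed the widest such gap in complex I, at 8.56, 8.47 and 8.50 against 8.66, 8.66 and 7.70. In Ndufa6 mutants 1 and 2 lay above the controls (10.24 and 10.09 against 9.72 to 9.88) and mutant 3 below them, at 9.41. These core subunits, Ndufa1, Ndufa6 and Ndufs6 were named after their values were seen.

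**Figure D2:**
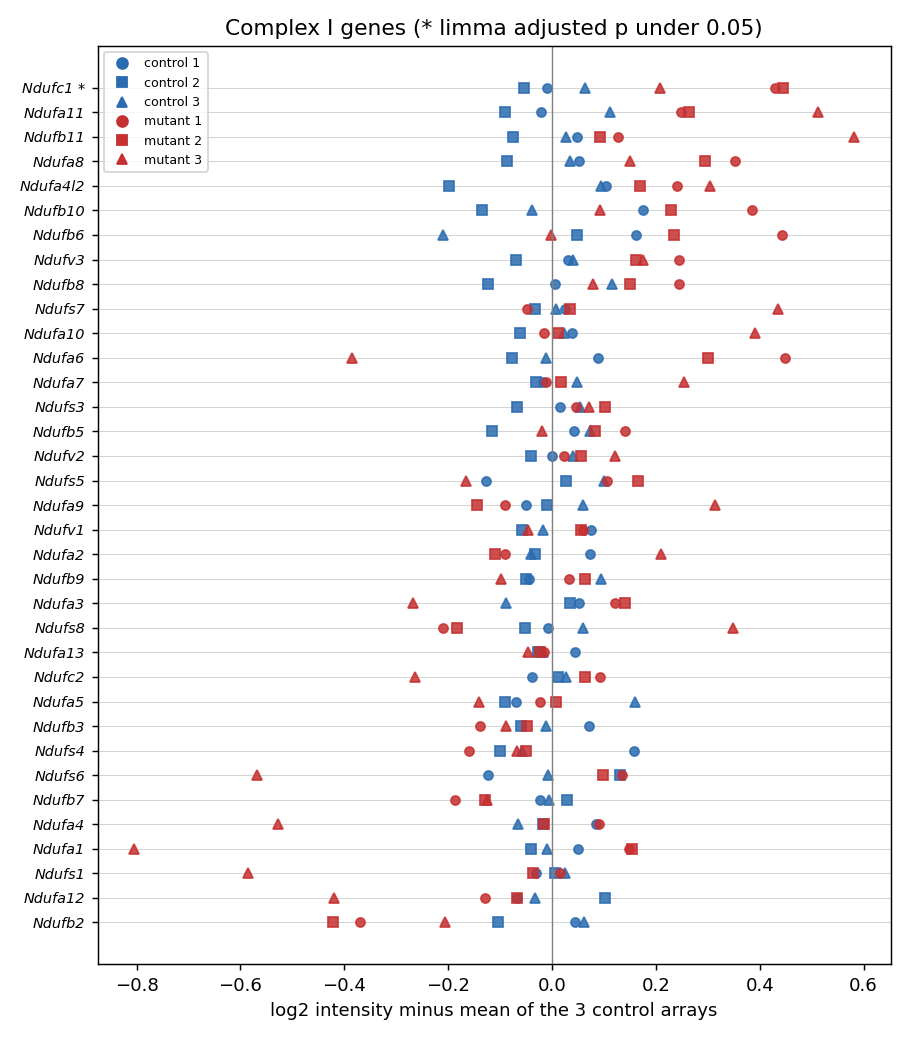
Log2 intensity of each complex I gene on each array, minus the mean of the 3 control arrays, ordered by the change between genotypes. Blue marks are controls and red marks mutants. Ndufc1 heads the list as the gene that passed, and mutant 3 (red triangle) stands alone on the left for Ndufa1, Ndufs1 and Ndufs6.

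Complex II, succinate dehydrogenase, also works in the citric acid cycle, and 0 of its 4 genes passed. The iron-sulfur subunit Sdhb read 10.25, 10.14 and 10.16 in controls and 10.24, 10.23 and 10.40 in mutants, a log2 change of 0.10 (95% interval -0.07 to 0.27). The membrane anchor Sdhd stood at -0.07 (95% interval -0.22 to 0.07). In the other two, mutants 1 and 2 read like the controls and mutant 3 moved, in opposite directions. The flavoprotein Sdha read 11.05, 11.06 and 11.06 against 11.08, 11.05 and 10.53. The anchor Sdhc read 10.71, 10.60 and 10.71 against 10.70, 10.63 and 11.21.

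Complex III, which hands electrons from coenzyme Q to cytochrome c, had 0 of 9 genes called. Uqcrfs1, the Rieske iron-sulfur protein, read 8.63, 8.77 and 8.62 in controls and 8.51, 8.54 and 8.11 in mutants. The groups did not overlap, and the log2 change of -0.29 (SE 0.12) had a limma adjusted p of 0.1984. Uqcrh, the acidic hinge protein, stood at -0.31 (SE 0.15, limma adjusted p = 0.2574), with overlap between groups. Uqcrb, a small subunit, read 12.50, 12.46 and 12.36 against 12.41, 12.43 and 11.81, so its change of -0.23 came with 1 low mutant pool. The core protein Uqcrc1 was steady in the mutants, at 10.89, 10.90 and 10.88 against 10.90, 10.71 and 10.84 in controls.

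Complex IV, cytochrome c oxidase, had 1 gene that rose among 17 and 0 that fell. That gene was Cox6b2, the testis-type form of subunit VIb, which faces the intermembrane space. It read 7.45, 7.38 and 7.55 in control pools and 8.07, 7.98 and 8.17 in mutant pools, and the gap between the groups was wider than the spread in either. Its level was 1.53-fold that of control, a log2 difference of 0.61 (SE 0.08, 95% interval 0.43 to 0.79, limma adjusted p = 0.007583). By exact permutation of the pools, two-sided, p was 0.1, which is the lowest value possible with 3 pools on each side. Leaving out control 1 or control 2 kept the size, at 0.61 and 0.57, but not the call, at limma adjusted p of 0.0584 and 0.0597. Cox6b1, its widespread counterpart, read 11.92, 11.77 and 12.06 in controls and 11.91, 11.92 and 12.17 in mutants, with overlap and a change of 0.08 (SE 0.10, limma adjusted p = 0.6769).

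Of the 8 tissue-restricted isoforms, Cox6b2 included, 1 passed and 7 lay above 0. The median log2 change of the 8 was 0.14 (all genes 0.03), and mutant 3 was the highest array in 5 of the 8 and the lowest in 0. Over all genes it was the highest in 43.8% and the lowest in 25.3%. Cox7a1, the muscle form of subunit VIIa, read 6.82, 7.02 and 7.01 in controls and 7.26, 7.14 and 7.11 in mutants. The groups did not overlap, with a change of 0.22 (SE 0.08, limma adjusted p = 0.1552). Ndufa4l2, a paralog of Ndufa4 known to be induced by hypoxia, stood at 0.24 (SE 0.09, limma adjusted p = 0.1861), also without overlap. Ndufa4 itself is now placed in complex IV, although its symbol put it in complex I here, and moving both genes left the medians of complexes I and IV at 0.03 and 0.00. Cox4i2, the lung form of subunit IV, stood at 0.08, Cox6a2, the heart and muscle form of VIa, at 0.14, and Cox8c, a testis form of VIII, at 0.14. Cox8b, a muscle form of VIII, stood at 0.01 and the testis form Cox7b2 at -0.05. Control means of these 8 genes ran from 5.61 to 8.33 on the log2 scale, and the table gives no detection call, so whether a dim probe set read its transcript is not known.

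Their 7 widespread counterparts had a median log2 change of -0.15, with mutant 3 the lowest array in 5 and the highest in 2. Their control means were higher, from 10.45 to 12.94. Among all genes with a mean log2 intensity of at least 10, mutant 3 was the lowest in 46.3% and the highest in 29.5%. Whether level accounts for the contrast between isoforms and counterparts was not tested. Cox4i1, the common form of subunit IV, read 10.57, 10.48 and 10.56 in controls and 10.65, 10.60 and 9.82 in mutants. Cox6a1 read 10.95, 10.88 and 10.93 against 11.09, 10.97 and 10.21. Cox7a2 read 10.83, 10.96 and 10.79 against 10.84, 10.76 and 9.97. In these 3, mutants 1 and 2 lay close to the controls and mutant 3 well below every other array. Cox8a lay the other way, at 11.77, 11.73 and 11.78 against 11.83, 11.84 and 12.13, with a change of 0.18 (SE 0.09, limma adjusted p = 0.3014). Cox7b stood at -0.02 and Ndufa4 at -0.15. Without mutant 3 the median of the counterparts was 0.04 and that of the restricted isoforms 0.10.

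**Figure D3:**
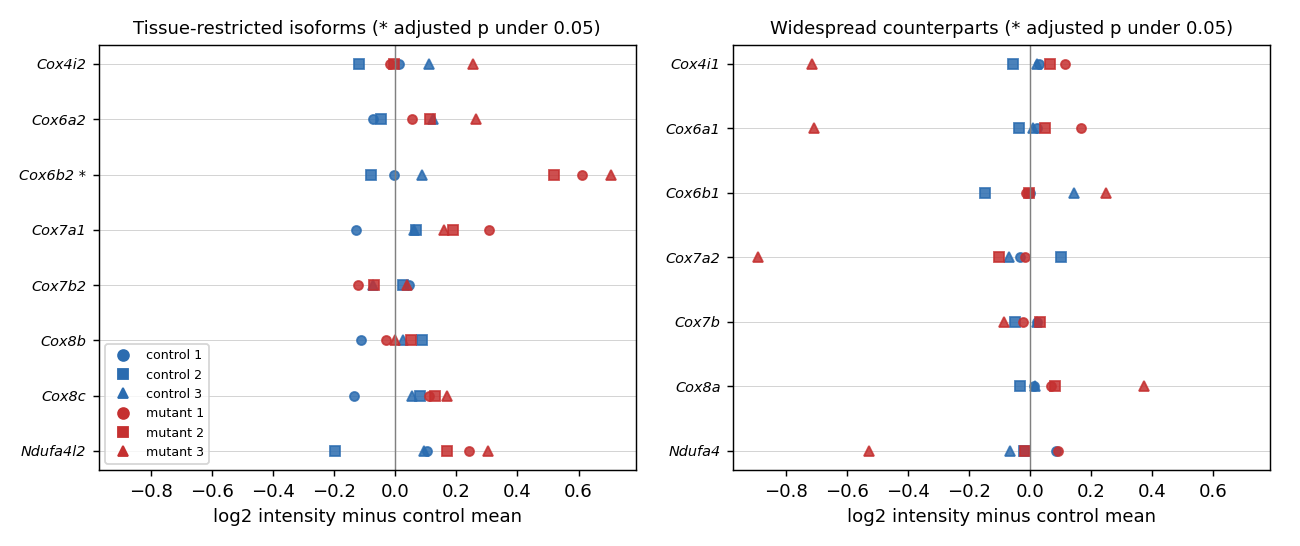
Log2 intensity of each tissue-restricted isoform (left) and widespread counterpart (right) on each array, minus the control mean of the gene. Blue marks are controls, red marks mutants. For Cox6b2 all 3 mutant pools stand apart from the controls, and for Cox4i1, Cox6a1 and Cox7a2 mutant 3 stands alone on the left.

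Complex V, the ATP synthase, had 0 of 16 genes called in either direction. Its F1 head, which makes ATP, is built of the subunits alpha, beta, gamma, delta and epsilon (Atp5a1, Atp5b, Atp5c1, Atp5d and Atp5e). Their median log2 change was -0.20, 4 of 5 were below 0, 3 did not overlap with controls (all lower, beside 15.1% of all genes), and mutant 3 was the lowest array in 5 of 5. It was the lowest in 25.3% of all genes and in 46.3% of those with a mean log2 intensity of at least 10. Without mutant 3 the median of the 5 subunits was -0.05. Atp5e read 9.33, 9.29 and 9.59 in controls and 8.98, 9.03 and 8.37 in mutants. Every mutant pool lay below every control, and the change of -0.61 (SE 0.18) was 65.5% of control, with a limma adjusted p of 0.0870. Without mutant 3 the change was smaller, -0.40, and was called lower. Atp5a1 read 11.92, 11.84 and 11.82 against 11.77, 11.70 and 11.34, a change of -0.26 (SE 0.11, limma adjusted p = 0.2275).

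The stalk that holds the head (4 genes) had a median log2 change of -0.10 and the c ring that turns (3 genes) -0.01. By array, the median shift of the stalk was 0.02, -0.04 and -0.35 in mutants 1, 2 and 3. Without mutant 3 the median log2 change was -0.01 for the stalk and -0.06 for the c ring. Atp5pb, subunit b of the stalk, was the gene whose probe sets had opposite signs, -0.10 and 0.02. In the c ring, Atp5g1 read 12.53, 12.55 and 12.70 in controls and 12.68, 12.69 and 12.94 in mutants, a change of 0.18 (limma adjusted p = 0.3002). Atp5g2 encodes the same mature subunit and lay the other way, at 12.81, 12.72 and 12.69 against 12.62, 12.63 and 12.22, a change of -0.25 (limma adjusted p = 0.2542). Both of these probe sets lie away from their gene in the array's numbering, and the probe sets at the genes' own places gave 0.28 for Atp5g1 (SE 0.20, limma adjusted p = 0.4492) and -0.02 for Atp5g2 (SE 0.07, limma adjusted p = 0.9042). That of Atp5g1 read 7.86, 7.82 and 7.77 in controls and 8.47, 8.23 and 7.57 in mutants. Without mutant 3 its change was 0.54 (limma adjusted p = 0.005674). The 4 accessory subunits of the membrane part, Atp5j2, Atp5k, Atp5l and Atp5md, had a median of -0.01. The genes named in full here are those with the smallest p of the complex, apart from the subunits listed by role.

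**Figure D4:**
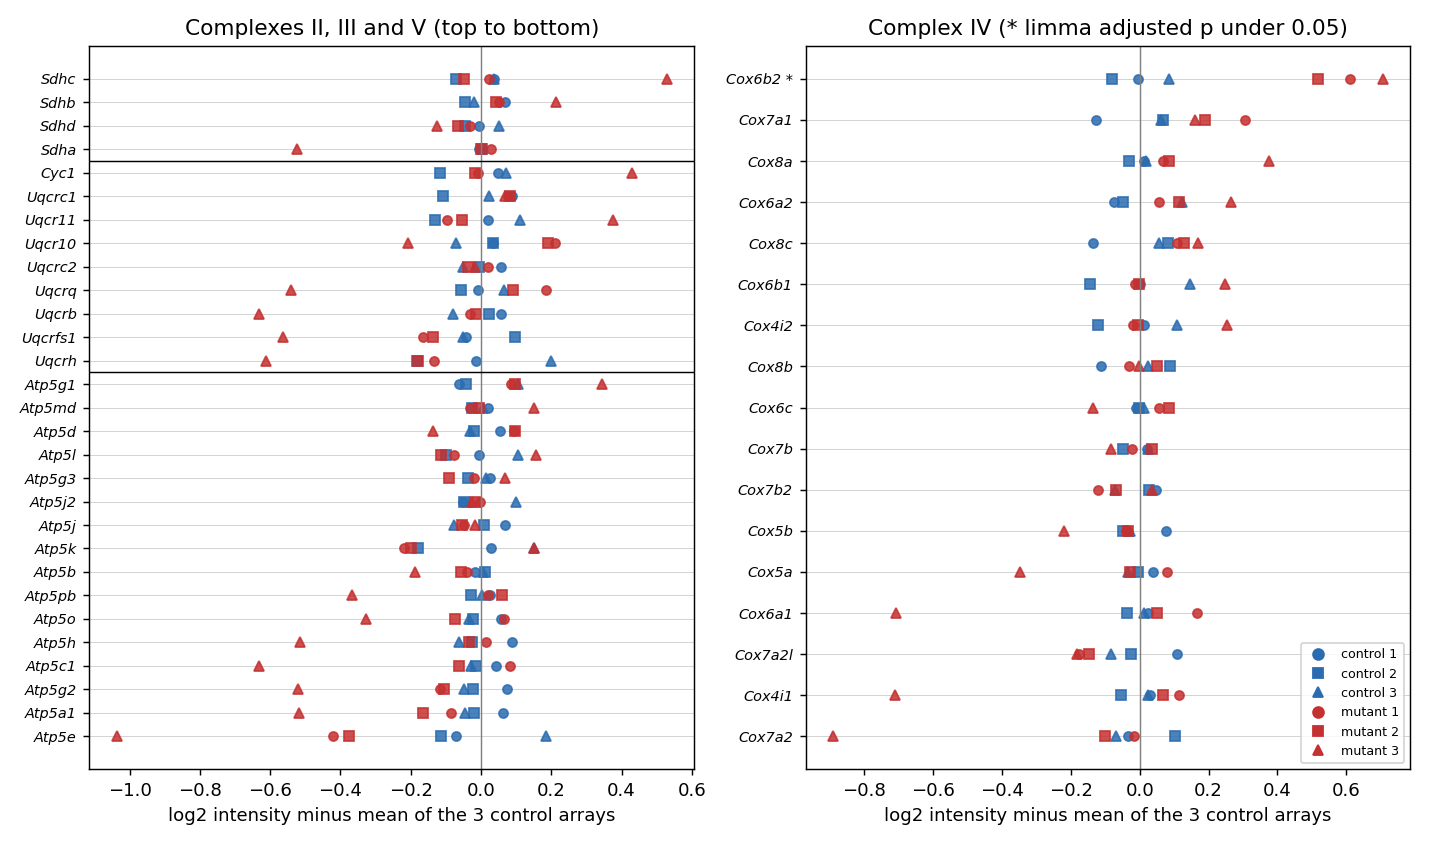
Log2 intensity of each gene on each array, minus the mean of the 3 control arrays, for complexes II, III and V on the left (separated by lines) and complex IV on the right. Blue marks are controls, red marks mutants. Cox6b2 carries the star of an adjusted p under 0.05, and Atp5e, with all mutants below all controls, does not.

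Several probe sets stood for 16 of the genes, 38 in all, and not all of them sat where the gene does. In the numbering of the array, which follows the genome in part, each of those 16 genes had exactly 1 probe set among its own chromosomal neighbours and 22 probe sets lay elsewhere. All 65 genes with a single probe set, Cox6b2 among them, had it at their own place. Probe sets elsewhere may read a near-identical copy, so their levels are uncertain as levels of the named gene, and in 10 of the 16 genes the brightest probe set was of that kind. The called probe set of Ndufc1 was at its own place. For Atp5g2 the probe set at its own place gave a change of -0.02 (limma adjusted p = 0.9042), the brightest gave -0.25, and the remaining one, with Ldhal6b and Serac1 as nearest neighbours, fell by 0.38 on the log2 scale (SE 0.06, limma adjusted p = 0.01694). Over all probe sets with 1 symbol, 5.96% were called. For Cox7a2l, which helps join complexes III and IV into supercomplexes, the probe set at its own place gave -0.38 (SE 0.11, limma adjusted p = 0.0832) and the brightest -0.17 (limma adjusted p = 0.2061). With the probe set at its own place standing for each gene, chosen as a setting after the data were seen, 2 genes were higher and 0 lower, and the median of complex V was -0.06.

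**Figure D5:**
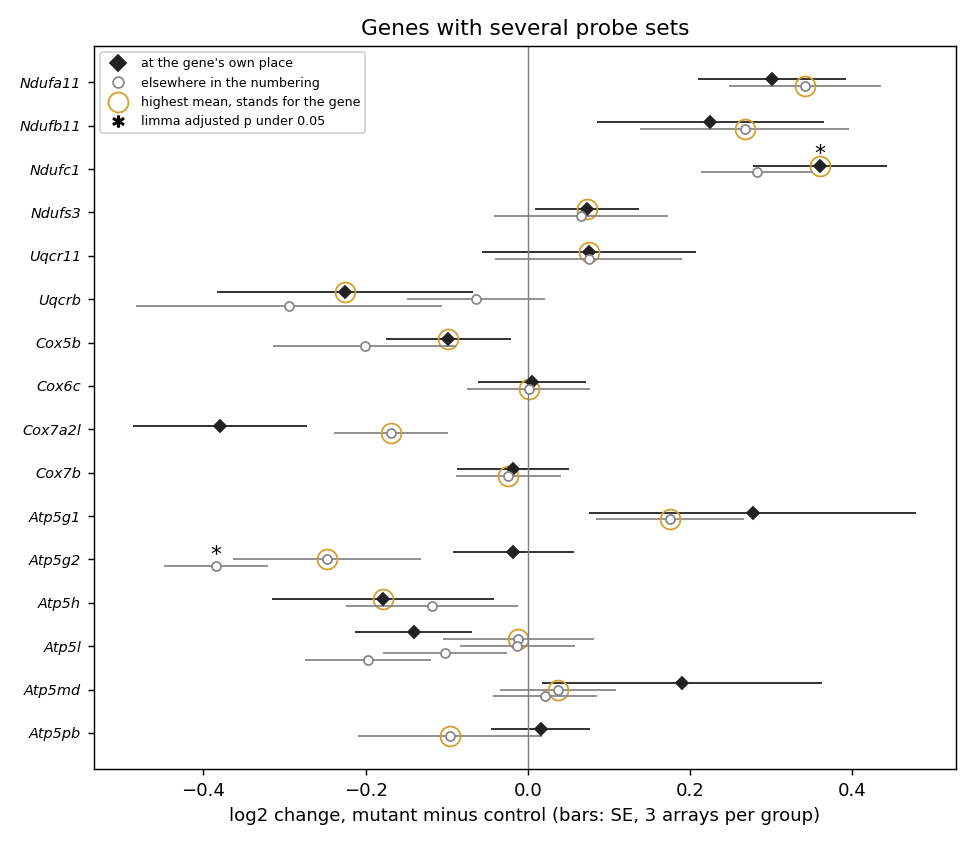
Log2 change, mutant minus control, of each probe set of the 16 genes that have several, with bars of 1 SE over 3 arrays per group. Filled diamonds are at the gene's own place in the array's numbering and open circles elsewhere. For Atp5g2 the called probe set at -0.38 is an open circle and the diamond is at -0.02.

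Genes that build or feed the chain were counted beside the 5.92% of all genes that were called, 2.96% higher and 2.96% lower. No test compared a list with that background. Of 31 measured assembly factors, which help put the complexes together, 2 were higher and 0 lower. Cox18, which inserts a mitochondrially encoded subunit of complex IV into the membrane, rose by 0.37 on the log2 scale (SE 0.07, limma adjusted p = 0.02262), reading 10.88, 10.80 and 10.88 in controls and 11.18, 11.19 and 11.30 in mutants. Uqcc3, a complex III factor, rose by 0.28 (limma adjusted p = 0.0457). Of 14 genes of coenzyme Q synthesis and cytochrome c, 0 passed. The nearest were Coq7 at -0.30 (limma adjusted p = 0.0826) and Coq8b at 0.25 (limma adjusted p = 0.1024).

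Among 21 genes of mitochondrial transcription and biogenesis, 0 rose and 1 fell. Gabpb2, a beta subunit of the GABP factor, read 9.51, 9.53 and 9.41 in controls and 9.03, 8.91 and 8.67 in mutants. The mutant level was 65.4% of control, a log2 difference of -0.61 (SE 0.10, limma adjusted p = 0.01423). Of 18 measured citric acid cycle genes and their feeders, Pcx (pyruvate carboxylase) rose by 0.40 (limma adjusted p = 0.03675) and Pdha1, the E1 alpha subunit of pyruvate dehydrogenase, fell. Pdha1 read 10.36, 10.44 and 10.33 in controls and 9.56, 9.55 and 9.22 in mutants. Its change of -0.94 (SE 0.10, limma adjusted p = 0.006245) was 52.3% of control, larger than that of any oxidative phosphorylation member. Of 6 measured genes of subunits and partners that the naming rule leaves out, such as Ndufab1 and Cycs, 0 passed. The median log2 changes were 0.05 for assembly factors, 0.05 for coenzyme Q and cytochrome c, -0.06 for biogenesis and -0.07 for the citric acid cycle, beside 0.03 for all genes. With mutant 3 left out they were 0.07, 0.06, -0.01 and 0.02 in the same order, beside 0.01 for all genes. Without mutant 3 the counts were 5 higher and 0 lower, 1 and 1, 1 and 2, and 1 and 1 in the same order. Over all genes that fit called 6.41% higher and 6.43% lower.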

How the data were processed

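Total RNA (150 ng per pool) was labelled as single-strand cDNA with whole-transcript kits, per the labels' protocols. The intensity values that the authors deposited were made with RMA (per the submitters' processing notes), a method that subtracts background, brings arrays to a common scale and combines the probes of a set. The sources used here do not give its version, the chip description or any filter. On the linear scale the values ran from 20.46 to 21070. Of 18064 probe sets, 734 had several platform symbols and 1019 had none. The log2 values of the remaining 16311 were fitted in R 4.3.3 with the lmFit and eBayes functions of limma 3.58.1, by genotype alone, without a covariate. The Benjamini-Hochberg adjustment ran over all 16311, and an adjusted p under 0.05 made a call. A change is the mutant mean minus the control mean, and SE is limma's standard error. The procedure was tested on simulated data. All 81 member symbols were found in the RefSeq table, which changed 0 of them.

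The text names Taf10, every member called, the 4 members of each complex with the smallest p, the tissue-restricted isoforms with their widespread counterparts, members whose probe sets differ in sign, and for each related list the genes called or otherwise those with the smallest p. Others are said to have been chosen later or are listed by role. The members and lists were chosen with earlier results of these data known. The number of arrays limits the precision. The labels call the pools biological replicates, so p-values measure the spread between pools. A probe set was at a gene's own place when at least as many of its 10 neighbours on each side lay on the gene's chromosome as did not, with 1 within 1 Mb. Alternatives were a replicate block, quantile normalization, median centring, a filter at the 40th percentile of level, the whole table, eBayes with a trend (with and without robust fitting), array weights, a pseudocount of 16, the mean of a gene's probe sets, other thresholds, Ndufa4 in complex IV, and arrays left out.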

Additional observations from a re-analysis of the deposited data

How the results depend on the processing

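Counts of called genes (2 higher, 0 lower) moved most with array weights, which gave 12 higher and 3 lower. They were 5 and 2 without control 3 and mutant 3 together, 4 and 2 at an adjusted p under 0.10, and 7 and 5 at an unadjusted p under 0.05. At that unadjusted p, 11.7% of all genes were higher and 10.9% lower. Without mutant 3 the share of all genes called rose from 5.92% to 12.8%. For the other settings given here that share was not counted, so whether their member counts differ from those of all genes is not known. The count of lower genes was 1 (Ndufb2) both with the filter on level and after quantile normalization. Over the arrays left out in turn, the counts ran from 0 to 5 higher and from 0 to 2 lower. Complex medians ran from 0.0151 to 0.0584 (I), -0.0091 to 0.0299 (II), -0.0368 to 0.0164 (III), -0.0410 to 0.0253 (IV) and -0.0999 to -0.0346 (V). Beyond the spread of the array medians, complex I moved to 0.0865 without control 3 and mutant 3 together. Complex II moved to 0.0541 after quantile normalization. Complex IV moved to 0.0371 after quantile normalization, 0.0362 with array weights and 0.0654 without both arrays. With a single array left out, complex IV moved as far as -0.0410. Complex V moved to -0.0385 after quantile normalization and to -0.0346 without mutant 3. The cause of these shifts was not tested. With the replicate number as a block, 2 genes were higher (Ndufa11 and Cox6b2) and 1 lower (Ndufb2), and Ndufc1 had a limma adjusted p of 0.0621. The numbers did not pair the samples by their deviations from the group means, which correlated at 0.134, 0.077 and 0.316 between same-numbered pools. No result changed sign while called, and over all alternatives 106 values of counts and medians stayed within their spread or within 1.5 times, while 26 moved further.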

Other observations

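Probe sets that carry several symbols were not members. Of 6 such probe sets for Cox7c, Ndufs5 and Ndufb4, each paired with a copy of the gene, 0 had a limma adjusted p under 0.05, the lowest being 0.191. In 1 of the 3 for Cox7c, a subunit of complex IV, the log2 level ran 9.94, 9.32 and 8.63 in controls and 8.72, 8.56 and 6.45 in mutants, a change of -1.39 (SE 0.60, limma adjusted p = 0.2179), and the groups overlapped. The other 2 probe sets for Cox7c changed by -0.20 and -0.13. For Ndufb4 the controls of 1 probe set ran from 6.42 to 7.64 and the mutants from 5.36 to 7.83, with overlap. The other Ndufb4 probe set was higher in every mutant, at 11.49, 11.34 and 11.54 in controls and 11.63, 11.63 and 12.08 in mutants, a change of 0.32 (SE 0.13), and it had the limma adjusted p of 0.191 given above.

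The genes beside Cox6b2 were not called. Kmt5c, nearest on 1 side, stood at 0.16 on the log2 scale (SE 0.07, limma adjusted p = 0.2330) and Il11 0.12 (SE 0.08, limma adjusted p = 0.3780). Tmem150b stood at 0.06 (SE 0.07, limma adjusted p = 0.6621). Beside Ndufc1, Naa15 stood at -0.26 (SE 0.13, limma adjusted p = 0.2634) and Rab33b at 0.13 (SE 0.06, limma adjusted p = 0.2710). Elf2, on the other side, stood at -0.03 (SE 0.09, limma adjusted p = 0.8826). These neighbours were the measured genes within 2 places of either gene in the RefSeq table.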
